A study of Mus musculus with 6 samples.

Results

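The BMP and TGF-beta pathway was followed in 6 mouse medulloblastomas through 48 genes listed by function: ligands, receptors, Smads, antagonists and the Id genes. For each gene the array feature with a single gene symbol and the highest mean over the 6 arrays was used. All 48 genes were found among the 22180 genes of the table, and 1 of them, Gdf5, had a second such feature. The tumours were postnatally induced medulloblastomas of the cerebellum, profiled on Affymetrix whole-transcript arrays, with 1 array per tumour. In both groups 1 mg tamoxifen given at postnatal day 5 activated a Cre recombinase under the Math1 (Atoh1) promoter, which switched on a floxed SmoM2 allele, an active form of the Hedgehog transducer Smoothened, and tumour tissue was taken at postnatal day 60. The 3 wild type tumours carried Math1Cre::SmoM2Fl/+ and kept Crebbp, while the 3 knockout tumours carried Math1Cre::CrebbpFl/FlSmoM2Fl/+ and lost this histone acetyltransferase in that lineage. The recombinase acts in the granule neuron lineage, so vessels, glia and immune cells in the tissue are not targets of the deletion. Only animals with clear tumour growth were taken, the labels name neither a strain nor the litter of any animal, and p-values therefore measure only the spread between these samples.

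BMP and TGF-beta ligands are secreted dimers that bring type I and type II receptor kinases together. BMP receptors phosphorylate Smad1, Smad5 and Smad9, and TGF-beta and activin receptors phosphorylate Smad2 and Smad3. The phosphorylated Smads join Smad4 and enter the nucleus, where they recruit the acetyltransferases Crebbp and Ep300 to target genes. Id genes, which encode inhibitors of basic helix-loop-helix factors such as Atoh1, are the classical targets of BMP signalling. In the developing cerebellum BMPs induce granule neuron progenitors at the rhombic lip, and Bmp2 and Bmp4 later oppose Hedgehog-driven proliferation of these cells.

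Values are RMA log2 expression levels, which range from 1.84 to 14.4 over the table, and all differences are knockout minus wild type on this scale. Levels of different genes are not compared, since each feature has its own probes. Crebbp itself had log2 levels of 11.70 to 11.80 in wild type and 11.20 to 11.34 in knockout tumours, with a difference of -0.50 (SE 0.09, limma adjusted p = 0.0948). The deleted exons are not given, so the feature may hold probes outside the deletion. Xist was at 5.13 to 5.74 in all wild type and at 12.26 to 12.45 in all knockout tumours, and Kdm5d, on the Y chromosome, showed the opposite pattern, so that the effects of genotype and of sex cannot be told apart here. Markers of the granule neuron lineage were present, with Atoh1 at 11.54 to 11.64 in wild type and 10.93 to 11.56 in knockout tumours. The mean log2 level of these 13 markers was 10.82 to 11.10 in wild type and 10.63 to 10.76 in knockout tumours, and that of 14 microglia and macrophage markers was 9.19 to 9.41 and 8.84 to 9.13, both without overlap. The largest difference among the 13 was that of Neurod1, at -1.13 (SE 0.23), while the progenitor gene Atoh1 differed by -0.28 (SE 0.16) with overlapping groups. At an unadjusted p under 0.05, 8 of the 13 lineage markers were lower and 2, Gli1 and Ptch1, higher, and 9 of the 14 microglial markers were lower. Of all genes, 6.51% were lower and 7.24% higher at that p. In bulk tissue fewer cells of a type and less RNA per cell cannot be told apart.

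None of the 48 genes passed the threshold over all genes, an adjusted p under 0.05 by limma with Benjamini-Hochberg adjustment over all 22180 genes, which 46 genes, or 0.207%, passed. At an unadjusted p under 0.05 there were 4 members, or 8.33%, against 13.8% of all genes. Tgfb3, Bmpr1b and Fstl1 were higher in knockout tumours (7.24% of all genes were higher at that p) and Bmp7 was lower (6.51% of all genes). Knockout and wild type values were fully separated, with no overlap, in 6 members, or 12.5%, against 19.6% of all genes. Tgfb3, Bmpr1b, Fstl1 and Smurf2 lay higher in all knockout tumours (10.2% of all genes did), and Bmp7 and Bmpr2 lower (9.43% of all genes). Both shares were below those of all genes in this fit, which did not hold in every alternative analysis. Of the 48 differences 20 were above 0 and 28 below, while 50.9% of all genes had a difference above 0 and 49.1% one below. The median difference was -0.06 for members and 0.0039 for all genes. The 95% interval of the difference lay within a 2-fold change in either direction in 44 members, or 91.7%, against 96.4% of all genes, and within a 1.41-fold change in 33, or 68.8%, against 70.2%.

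**Figure D1:**
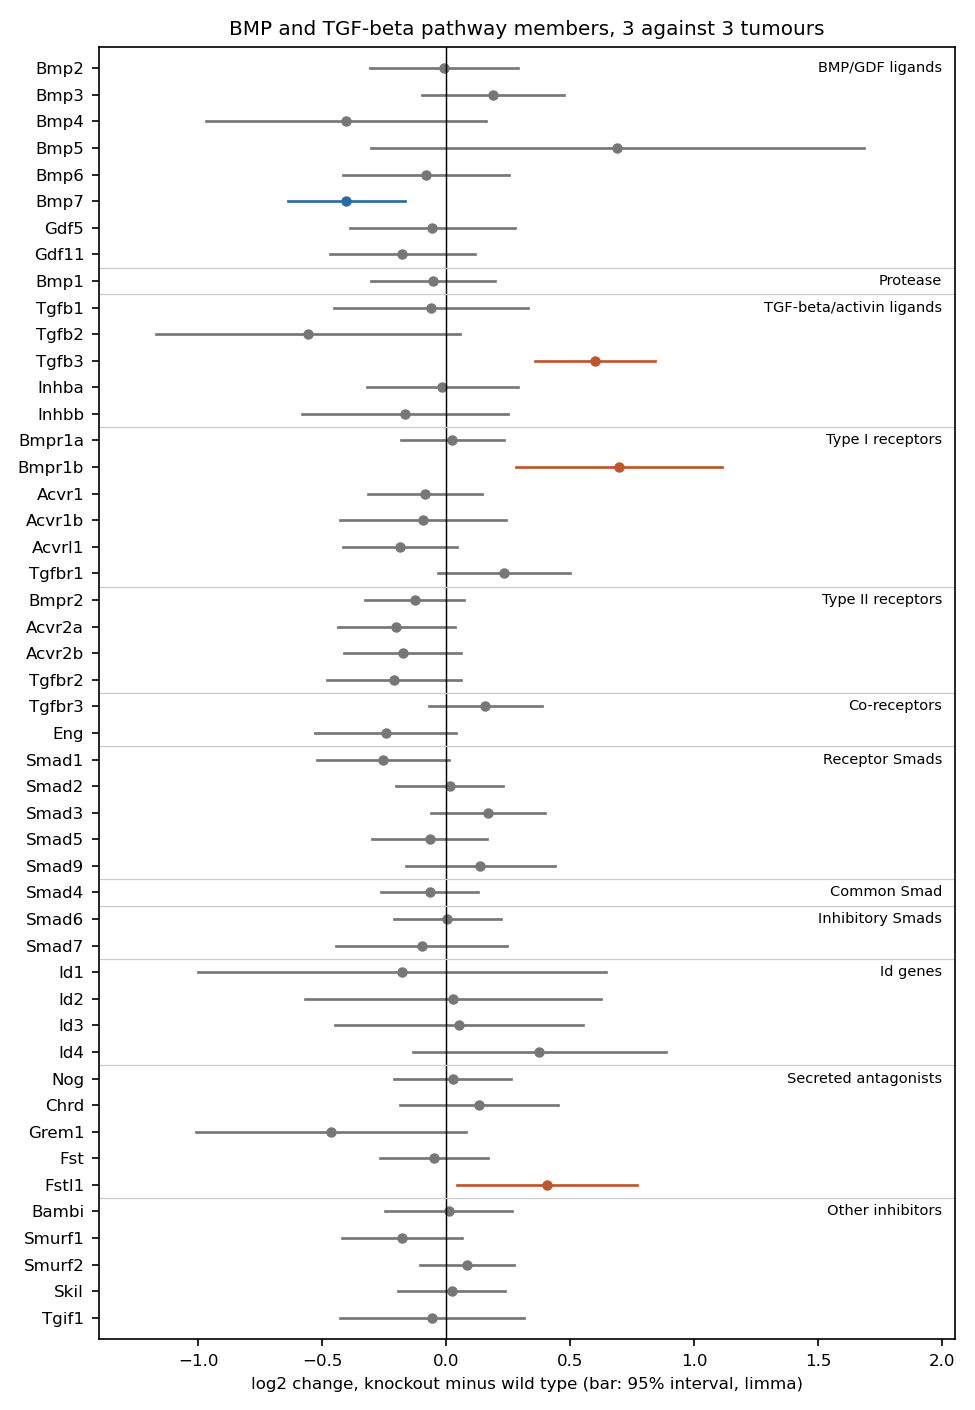
The log2 difference between knockout and wild type tumours (horizontal axis) with its 95% interval from limma is plotted for each of the 48 genes, grouped by role, with an unadjusted p under 0.05 in orange (higher in knockout) or blue (lower). Only Tgfb3, Bmpr1b, Fstl1 and Bmp7 have intervals that leave out 0, and the widest intervals belong to Bmp5 and Id1.

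Among the TGF-beta ligands, Tgfb3 had the smallest p of all members. This ligand is best known for its role in palate fusion. Its log2 levels were 6.88, 7.04 and 7.04 in wild type tumours 1 to 3 and 7.74, 7.53 and 7.48 in knockout tumours 1 to 3. Every knockout tumour lay above every wild type tumour. The difference was 0.60 (SE 0.10, limma adjusted p = 0.0948), a level 1.52 times that of wild type.

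Tgfb2, the second of the 3 TGF-beta isoforms, differed in the other direction, but its groups overlapped. Its log2 levels were 9.77, 9.85 and 10.64 in wild type and 9.87, 9.12 and 9.60 in knockout tumours. Wild type tumour 3 was the highest and knockout tumour 2 the lowest. The difference was -0.56 (SE 0.26, limma adjusted p = 0.405), and its 95% interval ran from -1.17 to 0.06. It was -0.28 without wild type tumour 3 and -0.35 without knockout tumour 2, and without wild type tumour 1 or knockout tumour 1, where its unadjusted p was under 0.05, it was -0.71 and -0.73. Tgfb1, the isoform on which microglia depend, was at 7.97 ± 0.14 in wild type and 7.91 ± 0.33 in knockout tumours (SD, n = 3 each). Any link between Tgfb1 and the lower microglial markers was not tested. The activin subunit genes Inhba and Inhbb differed by -0.02 (SE 0.13) and -0.17 (SE 0.18). The 3 TGF-beta isoforms therefore showed 1 higher, 1 with overlapping and widely spread values, and 1 at nearly the same mean.

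The 250 bases before the Tgfb2 start are shown because CREB family factors, after which Crebbp is named, bind the cyclic AMP response element (CRE), TGACGTCA. RefSeq places them on the minus strand of GRCm38.p6 at chr1:186705990-186706239. Capitals mark the CRE half-site TGACG on either strand.
Tgfb2: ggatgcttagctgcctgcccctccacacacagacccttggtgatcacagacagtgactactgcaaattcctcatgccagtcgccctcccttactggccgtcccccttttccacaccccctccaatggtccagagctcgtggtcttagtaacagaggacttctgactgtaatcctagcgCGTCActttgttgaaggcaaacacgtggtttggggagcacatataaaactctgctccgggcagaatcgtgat
The half-site lay 72 to 68 bases before the start and was found on the reverse strand. It is present in 17.8% of all 32851 promoter windows of this length and in 14.6% of the 41 windows of members. The full element was in 1.55% of all windows and in 0 of the 41. The 41 windows belong to 32 of the 48 genes, and the windows of Tgfb3 and Bmp7 were not analysed here. Such a match is a description of the letters only.

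Of the 8 BMP and GDF ligands, only Bmp7 had an unadjusted p under 0.05, or 12.5% against 13.8% of all genes. It was also the only 1 without overlap, against 19.6% of all genes. Bmp7 is made in the meninges, the choroid plexus and the rhombic lip of the developing cerebellum. Its log2 levels were 8.39, 8.25 and 8.45 in wild type and 7.97, 7.85 and 8.07 in knockout tumours. The groups did not overlap. The difference was -0.40 (SE 0.10, limma adjusted p = 0.182), a wild type level 1.32 times that of knockout.

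Over 7 choroid plexus markers the mean level was 9.05, 7.90 and 7.58 in wild type and 7.73, 7.47 and 7.56 in knockout tumours, with wild type tumour 1 the highest. At an unadjusted p under 0.05, 1 of 7 was lower in knockout, against 6.51% of all genes. Meningeal and fibroblast markers, 12 genes, had mean levels of 8.07 to 8.73 in wild type and 8.29 to 8.50 in knockout tumours, which overlapped. At an unadjusted p under 0.05, 2 of them (Igf2 and Lum) were higher and 3 (Aldh1a2, Foxc1 and Pdgfra) lower in knockout tumours. That was 41.7% of these markers, against 13.8% of all genes. Pdgfra also marks oligodendrocyte precursors, so this list is not specific to meningeal and fibroblast cells. The part of choroid plexus, meningeal or fibroblast cells in the Bmp7 difference was not tested.

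Bmp4, a ligand of the dorsal neural tube and rhombic lip, was at 7.78, 7.59 and 6.82 in wild type and 6.91, 7.25 and 6.82 in knockout tumours. Wild type tumours 1 and 2 lay above all others, and wild type tumour 3 lay with the knockout tumours. The difference of -0.40 (SE 0.24, limma adjusted p = 0.518) was as large as that of Bmp7 but with a larger error. Bmp5 showed the widest spread of all members. Its log2 levels were 6.39, 6.93 and 7.69 in wild type and 6.90, 7.71 and 8.46 in knockout tumours. The difference was 0.69 (SE 0.43, limma adjusted p = 0.53), and its 95% interval reached from -0.30 to 1.68. The other ligands, Bmp2, Bmp3, Bmp6, Gdf5 and Gdf11, had overlapping groups and differences from -0.18 (Gdf11) to 0.19 (Bmp3). Bmp1, which despite its name is a procollagen protease that also cleaves the antagonist chordin, differed by -0.05 (SE 0.11).

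**Figure D2:**
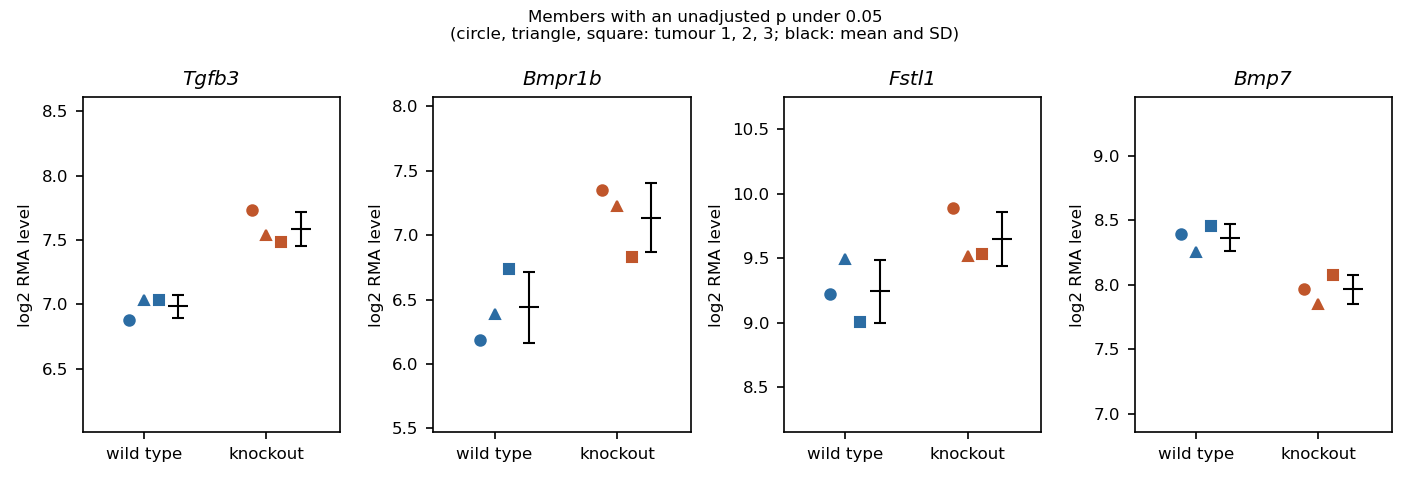
The log2 RMA level (vertical axis, spanning the same number of log2 units in each panel) of the 4 members with an unadjusted p under 0.05 is plotted for each of 3 wild type (blue) and 3 knockout (orange) tumours, with the mean and SD in black. Tgfb3, Bmpr1b and Fstl1 lie higher and Bmp7 lies lower in every knockout tumour, by the narrowest margin in Fstl1 (9.50 in wild type tumour 2 and 9.52 in knockout tumour 2).

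Among type I receptors, Bmpr1b had the largest difference of the 48 genes. Bmpr1b and Bmpr1a are the BMP type I receptors of neural progenitors. The log2 levels of Bmpr1b were 6.19, 6.39 and 6.74 in wild type and 7.35, 7.22 and 6.83 in knockout tumours. All knockout tumours were above all wild type tumours, with wild type tumour 3 and knockout tumour 3 closest to each other. The difference was 0.70 (SE 0.18, limma adjusted p = 0.184), a level 1.62 times that of wild type.

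Bmpr1a had nearly equal means in both groups, at 9.60, 9.71 and 9.76 in wild type and 9.77, 9.72 and 9.66 in knockout. Its difference was 0.02 (SE 0.09), with a 95% interval from -0.18 to 0.23. The TGF-beta type I receptor Tgfbr1 was at 8.99 ± 0.12 and 9.22 ± 0.16 (SD, n = 3 each), a difference of 0.23 (SE 0.11, limma adjusted p = 0.421). Its groups overlapped. Acvr1, Acvr1b and the endothelial receptor Acvrl1 differed by -0.08, -0.09 and -0.19, also with overlap.

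All 4 type II receptors had lower means in knockout tumours, by small amounts. Bmpr2, the main BMP type II receptor, was at 12.09, 12.16 and 12.03 in wild type and 11.97, 12.01 and 11.92 in knockout tumours. The groups did not overlap, but the difference of -0.13 (SE 0.09, limma adjusted p = 0.567) was small against the error of the fit. A further feature that names both Bmpr2 and Gm20272 was not used, and its difference was 0.11, in the other direction. Acvr2a, Acvr2b and Tgfbr2 differed by -0.20, -0.18 and -0.21 (SE 0.10, 0.10 and 0.12), each with overlapping groups. The sign of these 4 differences was kept in every alternative analysis, and the smallest limma adjusted p among them was 0.435 (Acvr2a). The co-receptor endoglin (Eng), an endothelial protein, differed by -0.24 (SE 0.12) and betaglycan (Tgfbr3), which presents Tgfb2 to its receptors, by 0.16 (SE 0.10). Endothelial and pericyte markers, 15 genes, had mean levels of 7.78 to 7.96 in wild type and 7.75 to 8.12 in knockout tumours, with overlap. At an unadjusted p under 0.05, 3 of the 15 were higher and 1 lower in knockout tumours, or 26.7% against 13.8% of all genes.

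The Smads differed little between groups. Smad4, the partner of all receptor-activated Smads, was at 11.17, 11.19 and 11.16 in wild type and 11.08, 11.19 and 11.06 in knockout tumours. Its difference was -0.07 (SE 0.08), and the 95% interval ran from -0.26 to 0.13. Smad1 had the largest difference among the Smads. It was at 9.20, 9.37 and 9.08 in wild type and 8.96, 9.10 and 8.83 in knockout tumours. The groups overlapped only between wild type tumour 3 and knockout tumour 2. The difference was -0.25 (SE 0.11, limma adjusted p = 0.382).

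Smad5 and Smad9, which act beside Smad1 downstream of BMP receptors, differed by -0.07 (SE 0.10) and 0.14 (SE 0.13). The TGF-beta and activin effectors Smad2 and Smad3 differed by 0.01 (SE 0.09) and 0.17 (SE 0.10). The inhibitory Smads are targets of the pathway that shut down its receptors. Smad7 was at 7.50, 7.39 and 7.12 in wild type and 7.23, 7.01 and 7.48 in knockout tumours, with full overlap and a difference of -0.10 (SE 0.15). Smad6, the inhibitor more specific to BMP receptors, was at 6.20 ± 0.11 and 6.21 ± 0.02 (SD, n = 3 each).

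The Id genes, the BMP readout of the list, overlapped between the genotypes in each case and varied widely between tumours. For Id1 and Id2 this spread lay mainly within the wild type group. The promoters of Id2, Id3 and Id4 are shown because RefSeq windows were matched for these Id genes. Capitals mark the GC-rich Smad motif GGCGCC, a palindrome, and the CRE half-site TGACG on either strand. Each run holds the 250 bases before the start in GRCm38.p6, for Id2 on the minus strand (chr12:25096093-25096342), and for Id3 (chr4:136143572-136143821) and Id4 (chr13:48260866-48261115) on the plus strand.
Id2: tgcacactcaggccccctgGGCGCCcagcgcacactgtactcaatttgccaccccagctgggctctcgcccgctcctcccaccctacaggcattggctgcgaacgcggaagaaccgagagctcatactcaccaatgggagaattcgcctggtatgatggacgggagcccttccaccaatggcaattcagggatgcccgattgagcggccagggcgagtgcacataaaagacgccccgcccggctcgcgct
Id3: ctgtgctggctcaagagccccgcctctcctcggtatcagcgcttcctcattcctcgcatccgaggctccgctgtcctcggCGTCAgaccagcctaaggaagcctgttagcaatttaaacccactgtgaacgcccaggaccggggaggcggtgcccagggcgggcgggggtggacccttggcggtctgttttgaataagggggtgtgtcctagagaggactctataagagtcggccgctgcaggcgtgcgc
Id4: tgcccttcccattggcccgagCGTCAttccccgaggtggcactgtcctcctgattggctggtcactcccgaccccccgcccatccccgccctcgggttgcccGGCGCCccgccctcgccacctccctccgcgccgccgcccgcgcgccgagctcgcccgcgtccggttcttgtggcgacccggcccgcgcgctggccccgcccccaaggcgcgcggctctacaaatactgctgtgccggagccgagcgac
The GC-rich motif lay 231 bases before the start of Id2 and 148 before that of Id4, and the half-site 170 before that of Id3 and 229 before that of Id4. The GC-rich motif was in 24.4% of the 41 windows of members and in 9.59% of all windows, with no adjustment for base composition. The palindromic Smad binding element GTCTAGAC was in 0 of the 41 windows and in 0.167% of all windows.

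Id1 is the Id gene most often used as a reporter of BMP signalling. Its log2 levels were 9.19, 9.39 and 7.87 in wild type and 8.64, 8.77 and 8.52 in knockout tumours. The knockout values lay inside the wild type range, between wild type tumour 3 and the other 2 wild type tumours. The difference was -0.18 (SE 0.35, limma adjusted p = 0.873), with a 95% interval from -0.999 to 0.65.

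Id2, another inhibitor of the family, followed the same order in the wild type group. It was at 11.79, 12.05 and 10.95 in wild type and 11.50, 11.58 and 11.78 in knockout tumours. Again wild type tumour 3 was lowest, and the difference was 0.03 (SE 0.26, limma adjusted p = 0.977). Id3 and Id4 had their highest wild type value in that same tumour. Id3 was at 7.98, 7.53 and 8.29 in wild type and 7.91, 8.31 and 7.74 in knockout tumours, a difference of 0.05 (SE 0.22, limma adjusted p = 0.943). Id4, an Id gene of astrocytes and neural stem cells, was at 7.10, 7.33 and 7.84 in wild type and 8.16, 7.70 and 7.54 in knockout tumours, a difference of 0.38 (SE 0.22, limma adjusted p = 0.502). The 4 Id genes thus did not move as a block: Id1 and Id2 were low, and Id3 and Id4 high, in 1 wild type tumour.

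All 4 Id genes were among the 8 members with the widest spread within groups. The pooled within-group SD was 0.59 for Id1, 0.42 for Id2, 0.34 for Id3 and 0.35 for Id4, which placed them at the 99.3rd, 97.1st, 94.2nd and 94.6th percentile of all genes. For Id1 and Id2 the spread came mainly from the wild type group, where tumour 3 lay apart. Their SDs were 0.82 and 0.57 in wild type and 0.13 and 0.14 in knockout tumours. The other 4 of the 8 members were Bmp5 (0.72), Tgfb2 (0.43), Bmp4 (0.39) and Grem1 (0.38). At the other end stood Smurf2, Smad4 and Bmpr2, with SDs of 0.03, 0.05 and 0.06. The members at these ends were thus some ligands, an antagonist and the Id targets, and a ubiquitin ligase, the common Smad and a receptor. This did not hold for whole classes. The ligands Bmp7 and Tgfb3 were at the 29.7th and 33.9th percentile, and the receptor Bmpr1b at the 88.2nd.

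**Figure D3:**
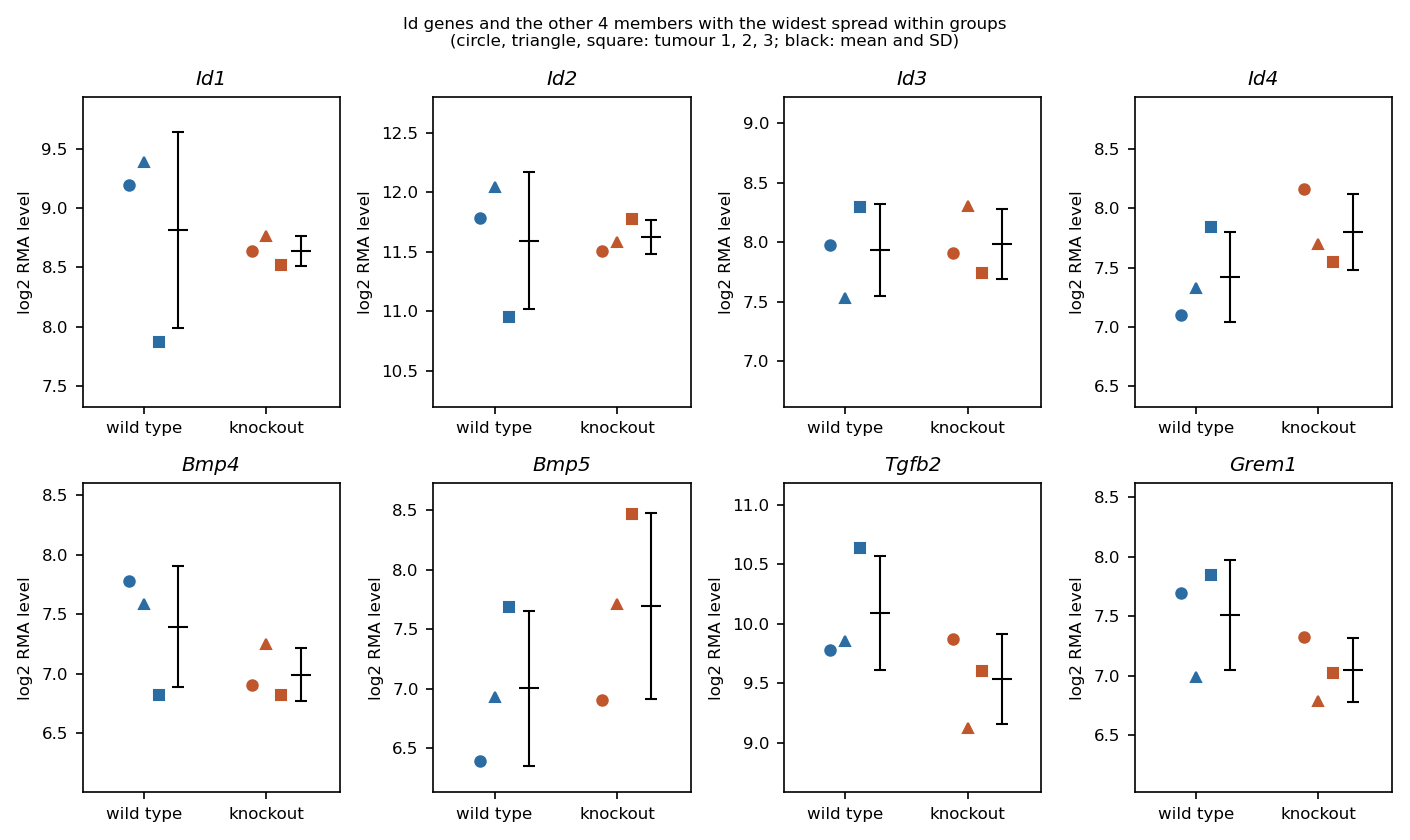
The log2 RMA level (vertical axis, spanning the same number of log2 units in each panel) of the 8 members with the widest spread within groups is plotted for each wild type (blue) and knockout (orange) tumour, with the mean and SD in black. Wild type tumour 3 (blue square) is the lowest of all 6 in Id1 and Id2 and the highest in Tgfb2 and Grem1.

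Wild type tumour 3 also differed from the other wild type tumours in the mean level of astrocyte and of oligodendrocyte lineage markers. Over 14 astrocyte and Bergmann glia markers its mean level was 9.75, against 9.05 and 8.98 in the other wild type tumours and 9.57 to 9.78 in knockout tumours. Of the 14, 4 were higher in knockout tumours at an unadjusted p under 0.05. Of all genes, 7.24% were higher and 6.51% lower at that p. Aqp4, the astrocytic water channel, was at 9.75, 9.67 and 11.49 in wild type and 11.26 to 11.47 in knockout tumours. Markers of the oligodendrocyte lineage, 9 genes, averaged 8.82, 8.72 and 8.22 in wild type and 8.21 to 8.63 in knockout tumours, with 3 of 9 lower in knockout at that p. Over the 9 markers of Purkinje cells and inhibitory neurons the means were 7.06, 7.56 and 7.90 in wild type and 8.61, 7.71 and 8.56 in knockout tumours, with 6 of 9 higher and 1 lower in knockout at that p. The part of these cells in the Id, Bmp5 and Bmpr1b values was not tested.

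Without wild type tumour 3, 12 members had an unadjusted p under 0.05, or 25% against 16.7% of all genes in the same fit. Id1 then differed by -0.65 (SE 0.12, limma adjusted p = 0.082), Bmp4 by -0.69 (SE 0.15, limma adjusted p = 0.106), Id4 by 0.58 and Bmp5 by 1.03. Leaving out 1 of some other tumours moved these differences the other way: Id1 was at 0.11 without wild type tumour 2, Bmp4 at -0.21 without wild type tumour 1, Id4 at 0.20 without knockout tumour 1 and Bmp5 at 0.30 without knockout tumour 3. Without wild type tumour 3, Smad1, Acvr1b and Smurf1 were lower as well, with differences of -0.32, -0.26 and -0.27, and Tgfbr1 and Bmp3 higher, by 0.30 and 0.29. Fstl1 was no longer among them, and Tgfb3, Bmpr1b and Bmp7 were. None of the members passed over all genes in that fit. Without knockout tumour 1 and without knockout tumour 2 there were 7 members each, or 14.6% against 10.3% and 12.4% of all genes. Without wild type tumour 1, wild type tumour 2 or knockout tumour 3 there were 5 each, or 10.4% against 11.2%, 9.8% and 10.8% of all genes.

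**Figure D4:**
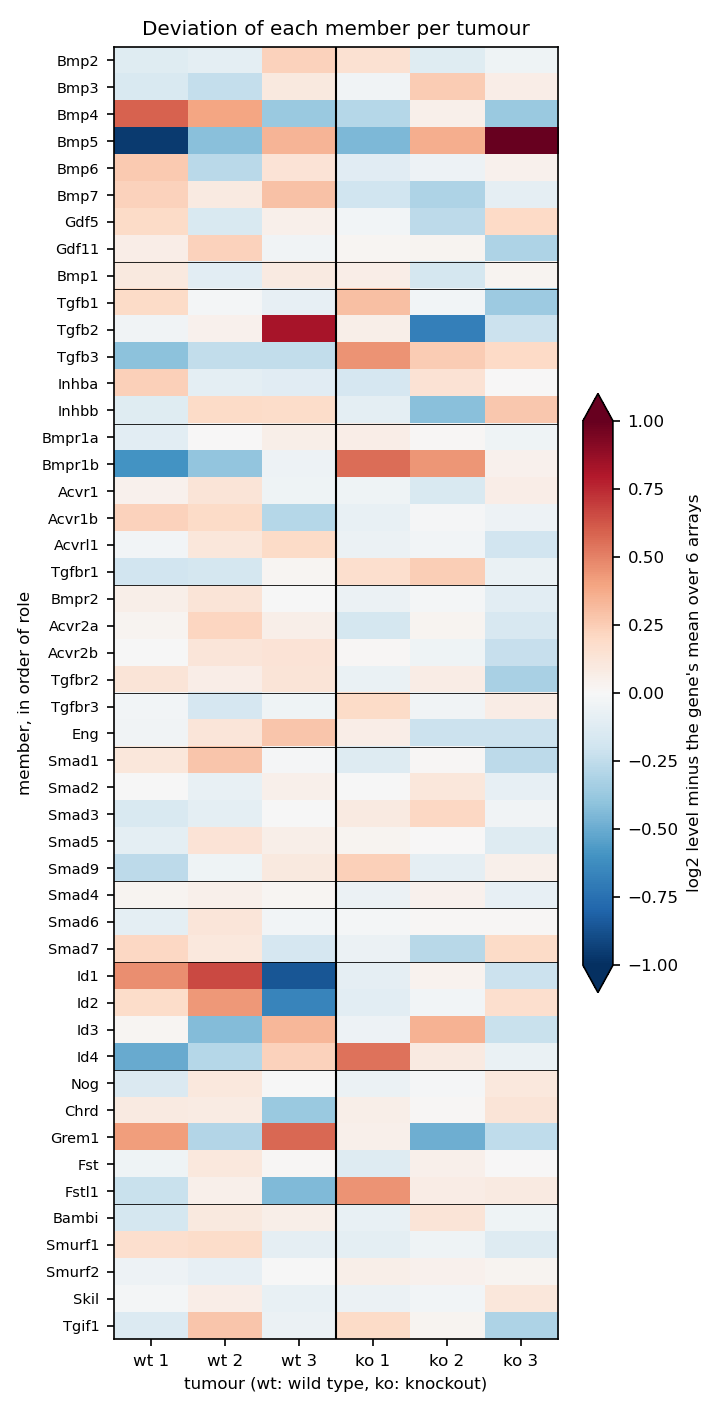
Each row is 1 of the 48 genes in the order of role, each column a tumour, and the colour is the log2 level minus that gene's mean over the 6 arrays, cut at 1 in both directions. Most rows are pale, and the strongest colours fall on Bmp5, Id1, Tgfb2 and Id2, whose groups overlap, followed by Bmpr1b, whose groups do not.

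Among secreted antagonists, Fstl1, a follistatin-like glycoprotein that binds BMP ligands, was at 9.23, 9.50 and 9.00 in wild type and 9.89, 9.52 and 9.53 in knockout tumours. The groups were separated by a narrow gap. The difference was 0.41 (SE 0.16, limma adjusted p = 0.318), a level 1.33 times that of wild type, and its unadjusted p was above 0.05 without wild type tumour 1, wild type tumour 3 or knockout tumour 1.

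Grem1, which traps Bmp2 and Bmp4, was at 7.70, 6.99 and 7.85 in wild type and 7.33, 6.79 and 7.02 in knockout tumours. Wild type tumours 1 and 3 were above all others, while the mean of the fibroblast and meningeal markers was 8.36, 8.07 and 8.73 in wild type and 8.50, 8.29 and 8.29 in knockout tumours. The part of these cells in the Grem1 values was not tested. The difference was -0.46 (SE 0.23, limma adjusted p = 0.434). It was -0.73 without wild type tumour 2 and -0.30 without wild type tumour 3. Noggin (Nog), a secreted BMP trap, was at 6.35, 6.60 and 6.48 in wild type and 6.43, 6.48 and 6.60 in knockout tumours. Its difference was 0.03 (SE 0.10). Chordin (Chrd) and follistatin (Fst), which bind BMPs and activins respectively, differed by 0.13 (SE 0.14) and -0.05 (SE 0.09).

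The inhibitors at the membrane and inside the cell came last. Smurf2, a ubiquitin ligase that targets Smads and receptors, was at 10.44, 10.41 and 10.49 in wild type and 10.55, 10.53 and 10.52 in knockout tumours. The groups did not overlap, but the difference was only 0.09 (SE 0.08, limma adjusted p = 0.697). Its relative Smurf1 differed by -0.18 (SE 0.10). The pseudoreceptor Bambi, itself a BMP target, was at 8.06 ± 0.15 and 8.07 ± 0.11 (SD, n = 3 each). The nuclear corepressors Skil and Tgif1, which hold Smad targets silent, differed by 0.02 (SE 0.09) and -0.06 (SE 0.16).

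A longer list of 102 further pathway genes, of which 90 were measured, was examined next. None passed over all genes, and 11, or 12.2%, had an unadjusted p under 0.05, against 13.8% of all genes, with 3 higher and 8 lower in knockout tumours (7.24% and 6.51% of all genes). Groups did not overlap in 23, or 25.6%, against 19.6% of all genes, with 7 higher and 16 lower (10.2% and 9.43% of all genes). Their median difference was -0.04. The 18 further ligands and 6 further receptors and co-receptors held none of the 11. The largest difference among these ligands was that of Gdf10, a ligand of Bergmann glia, at -0.27 (SE 0.35), and among the receptors that of the TGF-beta co-receptor Cd109 at 0.23 (SE 0.17).

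Of 32 extracellular regulators, 2 were higher and 3 lower at an unadjusted p under 0.05, or 15.6% against 13.8% of all genes. Tll1, a protease related to Bmp1 that cleaves chordin, was at 8.10, 7.73 and 8.03 in wild type and 8.69, 8.29 and 8.61 in knockout tumours. It differed by 0.57 (SE 0.14, limma adjusted p = 0.182) without overlap. The proprotein convertase Pcsk5, which matures ligands of this family, differed by 0.38 (SE 0.12). The latent TGF-beta binding protein Ltbp4 and the integrin subunit Itgav, which takes part in releasing latent TGF-beta, had differences of -0.48 (SE 0.17) and -0.39 (SE 0.13). Chrdl1, a chordin-like BMP antagonist, differed by -0.48 (SE 0.18) with overlapping groups. Limma adjusted p for Pcsk5, Ltbp4, Itgav and Chrdl1 was 0.243, 0.288, 0.28 and 0.299. Of 18 intracellular regulators, 2, or 11.1%, had an unadjusted p under 0.05, against 13.8% of all genes. Tab1, a subunit of the TAK1 kinase complex, was higher by 0.22 (SE 0.09) and the ubiquitin ligase adaptor Rnf11 differed by -0.36 (SE 0.12).

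Of 16 measured genes reported as targets of the pathway, 4, or 25%, had an unadjusted p under 0.05, and all 4 were lower in knockout tumours, against 13.8% of all genes in either direction and 6.51% lower. Over the 16 genes 6 differences were above 0 and 10 below. Tgfbi, a matrix protein named for its induction by TGF-beta, was at 9.23, 8.72 and 8.79 in wild type and 8.07, 8.56 and 7.83 in knockout tumours. It differed by -0.76 (SE 0.21, limma adjusted p = 0.199). The cell cycle inhibitor genes Cdkn1a and Cdkn2b, which TGF-beta induces in epithelial cells, differed by -0.80 (SE 0.21, limma adjusted p = 0.184) and -0.37 (SE 0.14, limma adjusted p = 0.311). Junb differed by -0.31 (SE 0.10, limma adjusted p = 0.241). The groups did not overlap in any of these 4. Tgfbi is also expressed by macrophages, whose markers were lower in knockout tumours as given above, and Cdkn1a is also a p53 target. Their part in these differences was not tested. Ccn2, a matricellular target of TGF-beta, differed by -0.31 (SE 0.14, limma adjusted p = 0.372), and the adapter gene Tgfb1i1 by 0.31 (SE 0.15).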

How the data were processed

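RNA of 6 tumours, 3 per group by their titles, was hybridised to 1 Affymetrix array each. The deposited log2 values are RMA values, and oligo is the package named, per the submitters' processing notes. For versions and build, nothing is given in the sources used here. The method equalises the arrays' distributions, compresses differences of dim features and removes any change shared by most genes. Precision is set by the number of arrays. Of 41345 features, 23521 had 1 symbol, 1814 several and 16010 were unnamed here. The feature with the highest mean was used for each of 22180 genes, and no filter was set on level.

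Groups were compared by moderated linear models (limma 3.58.1, R 4.3.3), two-sided, and p-values were adjusted by Benjamini-Hochberg over every gene of the table (threshold 0.05). The fit was tested on simulated data. Intervals are limma's 95% intervals. An exact permutation test of 3 against 3 arrays cannot go below p = 0.1. Members, lists and markers were chosen with earlier results of these data known. Older list symbols were matched through RefSeq synonyms, which renamed 2 genes. Per-tumour values were given for members past an unadjusted p of 0.05 or without overlap, for central members of the pathway, for the 3 with the largest differences, for Grem1, which was chosen for its spread, and for further pathway genes and markers where a result turns on them. Alternatives changed the scaling, the variance model, the array weights, the choice among several features and the filter on dim genes, and added a replicate block, a fit without X and Y genes and fits without each array. Promoter windows come from RefSeq (GRCm38.p6).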

Additional observations from a re-analysis of the deposited data

How the results depend on the processing

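In every alternative 0 of the measured members (48, or 30 without the dimmest 50% of genes) had an adjusted p under 0.05 by limma, while 4 had an unadjusted p under 0.05 with all arrays. The number of members at an unadjusted p under 0.05, 4 with all arrays, was 7 with array weights (14.6% against 15.8% of all genes) and 8 with a replicate block (16.7% against 13.9%), and 5 to 12 when single arrays were left out. Bmp7 kept an unadjusted p under 0.05 in all 16 alternatives, Tgfb3 in the 15 that kept the gene, and so did Bmpr1b in the 15 that kept it (the dimmest 50% of genes includes it), while Fstl1 lost it in 3. Smad1 gained it in 8 of 16 alternatives. The number of members without overlap, 6 with all arrays, was 10 with quantile normalization (20.8% of members and of all genes) and 8 to 17 without single arrays, where smaller groups overlap less (26.9% to 35.7% of all genes). Further pathway genes at an unadjusted p under 0.05 numbered 11 with all arrays, or 12.2% against 13.8% of all genes. Without single arrays they numbered 7 to 19, or 7.78% to 21.1%, against 9.8% to 16.7% of all genes. The number of all genes past the adjusted threshold, 46, was 77 without the dimmest 25% of genes, 137 with trend and robust variance, 12 with the replicate block, and 4 to 128 without single arrays. The replicate block gave Bmp5 a difference of 0.69 (SE 0.10, limma adjusted p = 0.132), but the labels do not state that equal numbers pair tumours. Tumours of the same number deviated together only weakly (r = -0.03, 0.05 and 0.10 over all genes). Those of different numbers had r from -0.14 to 0.11. Such correlations cannot exclude a pairing. Of members that were not at an unadjusted p under 0.05 with all arrays, none reached it in the opposite direction.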
